A study of Mus musculus with 5 samples.

Results

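In dermal fibroblasts of mouse embryos, 1172 stretches of chromatin next to the start sites of protein-coding genes carried the repressive histone mark H3K27me3 in both libraries of embryonic day E14.5 and had no peak of the mark in either library of E18.5. To find them, the peaks of all 4 libraries on the 19 autosomes were joined wherever they shared a base, which gave 24721 regions. A region was kept when it held a peak of each E14.5 library, no peak of an E18.5 library, no single peak of 10000 bp or more, and lay within 3000 bp of an annotated start site. The 1172 regions made up 4.74% of all merged regions, and 1169 protein-coding genes had a start site within 3000 bp of at least 1 of them. The regions were chosen by the presence and absence of peaks in these same 4 lists, so their peak values are given below as a description, with no test.

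The material was ChIP-seq of H3K27me3 in cultured wild-type (WT) dermal fibroblasts, with 2 libraries for each stage. The stages are named E14.5 and E18.5 here after the published staging, while the sample labels read E14 and E17. The cells of both stages came from WT skin and were expanded in culture before the assay, so the profiles describe cultured cells and not freshly isolated dermis. The labels name DMEM with 10% fetal bovine serum, sonication and an Ion Torrent library kit, whereas the methods name AmnioMAX medium, an enzymatic kit and Illumina sequencing. An input library is labelled as well and was not analysed here. The lists held 21546 and 16574 peaks at E14.5 and 10429 and 7107 peaks at E18.5. The methods state that WT and Kdm6b-knockout samples of E18.5 were subsampled to the read depth of other samples, and it is unclear whether this covers the E18.5 libraries used here. The lists carry no counts of reads against which this could be checked, and nothing in the labels says whether replicates came from separate animals.

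H3K27me3 is placed on histone H3 by Polycomb repressive complex 2, through its catalytic subunits EZH1 and EZH2, and is removed by the demethylases KDM6A and KDM6B. In vertebrates it lies mostly over the promoters of developmental regulators that a cell type keeps silent, with a preference for CpG-rich sequence. In the embryonic dermis, fibroblast progenitors give rise to papillary and reticular fibroblasts, the dermal papilla of the hair follicle and the adipocytes of the lower dermis.

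Marker genes were looked up to check the label of the cells. Of 11 fibroblast genes (Col1a1, Col1a2, Col3a1, Dcn, Lum, Pdgfra, Twist2, Prrx1, Vim, Fn1 and Thy1), none had a peak near any of its start sites, at 3000 bp or less, in the 4 libraries. Of 5 epithelial genes, Cdh1, Epcam, Grhl2 and Esrp1 had a peak in all 4 libraries. Trp63, the regulator of the basal epidermis, had none in any library, so this marker did not show the pattern of a silenced epithelial gene.

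The E14.5-only promoter regions were mostly narrow and, in the lists as deposited, of middling rank. They lay next to genes of many kinds, and few belonged to the homeobox, forkhead, Sox or helix-loop-helix families. The adipocyte regulators Pparg and Cebpa stood near the top. Wnt and FGF ligands, semaphorins, solute carriers and neurotransmitter receptors were also among the genes. Of the 1169 genes, 281 were on at least 1 of 32 gene lists by function or cell type, and 888 were on none.

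To rank the regions, the fold enrichment of the strongest peak in each E14.5 library was turned into its percentile within that library's own list, because fold enrichment was read only within a list. The mean of both percentiles is used as the rank. The highest mean, 93.8, belonged to a region at chr11:101077617-101080860 (GRCm38) that covered the start of Hsd17b1, the enzyme that turns estrone into estradiol, and lay 1705 bp before the start of Coasy, the last enzyme of coenzyme A synthesis. Its fold enrichment was 5.97 in replicate 1 and 5.39 in replicate 2, at percentiles 96.5 and 91.1. The 3244 bp region was covered over 3244 bp in replicate 1 and 2435 bp in replicate 2, and the nearest E18.5 peak was 76.5 kb away.

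Pparg, the nuclear receptor that drives adipocyte differentiation, came next. Its region at chr6:115358994-115363785 was 4792 bp wide and held percentiles of 90 and 96.7. The next regions lay inside Kazald1, a secreted protein with a Kazal domain, and over the start of Nrbp2, a pseudokinase. At Kazald1, percentiles were 92.7 and 88.8 and the region began 562 bp after the start site. At Nrbp2 they were 91.0 and 89.7, with a peak of E18.5 replicate 1, but not of replicate 2, 2.72 kb from the region. Nrbp2 also had a region with an E18.5 peak near a start site, so the absence at E18.5 concerned part of the promoter neighbourhood.

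The other regions among the 15 highest lay next to genes of varied function. Ltc4s, which makes the inflammatory lipid leukotriene C4, had percentiles of 87.7 and 90.8 over a region of 696 bp. Glra1, a subunit of the glycine receptor, had 90.2 and 85.0, and Tnk1, a tyrosine kinase, had 90.6 and 84.2. For these 3 genes the region covered the start site. Plxnd1, a semaphorin receptor, had 90.8 and 83.2 over coding sequence 354 bp after its start, and Sema6c, a transmembrane semaphorin, had 81.0 and 92.0 at a distance of 2406 bp. Dhrs3, a retinaldehyde reductase that limits retinoic acid, had 89.6 and 83.5. The flippase gene Atp8b1 had the widest region of this group, 5370 bp, at percentiles 91.0 and 82.0. Gpr135, an orphan receptor, had 84.8 and 87.5, and Arhgap45 had 87.1 and 87.2 upstream of its start.

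In 2 of these 15 regions the reference sequence is not unique. Of the 100 bp pieces of the H2-Q4 region, a class I histocompatibility gene, 33.3% matched 1 place in the genome, and at Setdb1, an H3K9 methyltransferase, the share was 12.5%. Reads at such sites can come from other copies, and their part in these peaks was not tested. Percentiles were 91.3 and 88.4 at H2-Q4 and 85.9 and 88.7 at Setdb1. In the other 13 regions at least 97.9% of the pieces matched 1 place, the value at Pparg being the lowest.

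Among 40 adipocyte genes, 12 were marked by both replicates of E14.5, and 5 of those lay next to an E14.5-only promoter region (41.7%, beside 27% of all 4336 marked genes). The 5 were Pparg, Cebpa, Adrb3, Nr1h3 and Dgat2, and none of them had an E18.5 peak near another start site. Since peaks of the same 4 lists chose these genes, the share is a description. The list holds the master regulators of the lineage together with enzymes and receptors of the mature fat cell.

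Cebpa, a transcription factor that acts with PPARG in adipogenesis, carried the mark on either side of its gene start and not over it. The gene lies at chr7:35119293-35121928 on the plus strand. The upstream region, chr7:35114122-35118067, was 3946 bp wide, ended 1226 bp before the start site and was covered over 3908 bp in replicate 1 and 2223 bp in replicate 2. Its percentiles were 86.7 and 84.6. The downstream region, chr7:35120193-35123149, began inside the single exon of the gene and held percentiles of 83.6 and 80.9. Both replicates thus left the stretch between the regions free of peaks, and the nearest E18.5 peaks were 64.8 and 59.7 kb away.

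At Pparg the replicates differed in shape. Replicate 1 had a single peak across the start of the gene, whereas replicate 2 had a peak of 781 bp and another of 2329 bp with a gap between them. The stronger of these stood at percentile 96.7 and the weaker at 78.6. The start of the gene as annotated, position 115360951 on the plus strand, fell into that gap. The stretch downstream of it, where a second RefSeq promoter starts at 115362349, was covered in both replicates.

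Adrb3, the beta-3 adrenergic receptor of adipocytes, had 1 region over its start with percentiles of 76.1 and 74.5 and another 1206 bp away with 60.3 and 60.5. Nr1h3, the liver X receptor alpha, had 57.1 and 27.1, and Dgat2, which makes triglycerides, had 15 and 32.4.

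Fgf10 and Retn also had peaks within 3000 bp in each E14.5 replicate and none at E18.5, yet neither had an E14.5-only promoter region. At Fgf10, a growth factor of mesenchymal cells, the peak of replicate 1 at chr13:118712971-118713409 and the nearer peak of replicate 2 at chr13:118713558-118713912 lay side by side without sharing a base. At Retn, which encodes the adipokine resistin, replicate 1 had a peak at chr8:3652753-3653059 and replicate 2 had peaks at chr8:3656673-3657370 and chr8:3658741-3659035. Counted by gene instead of by region, 982 genes had a peak of each E14.5 library and no E18.5 peak within 3000 bp of a start site. Of these, 821 had an E14.5-only promoter region and 161, with Fgf10 and Retn among them, had none. Sox18 and Alpl had a peak in all 4 libraries and were not members.

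Promoter sequence was examined in the RefSeq table for GRCm38.p6, which gives 300 bases per promoter, 250 before and 50 after the start. It held 868 of the 1169 genes, and 852 promoters of 724 genes lay within 3000 bp of the region of their gene. For 114 promoters of 106 genes, peaks of each E14.5 library covered all 300 bases. In 384 promoters compared with the genome sequence, all letters matched. The 250 bases before the start are given 5′ to 3′ on the strand of the gene, with each CpG in capitals, since CpG content is the feature most tied to Polycomb binding. Pparg, Tnk1 and Tjp3 had the highest mean percentiles among covered promoters. Tjp3 encodes a tight junction protein. Their sequences lie at chr6:115362099-115362348 on the plus strand, chr11:69858731-69858980 on the minus strand and chr10:81291268-81291517 on the minus strand.
Pparg: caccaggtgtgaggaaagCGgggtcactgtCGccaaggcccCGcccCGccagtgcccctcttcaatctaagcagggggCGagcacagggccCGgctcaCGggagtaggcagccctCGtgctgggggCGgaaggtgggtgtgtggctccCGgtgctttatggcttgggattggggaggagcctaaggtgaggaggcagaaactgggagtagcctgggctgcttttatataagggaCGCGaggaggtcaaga
Tnk1: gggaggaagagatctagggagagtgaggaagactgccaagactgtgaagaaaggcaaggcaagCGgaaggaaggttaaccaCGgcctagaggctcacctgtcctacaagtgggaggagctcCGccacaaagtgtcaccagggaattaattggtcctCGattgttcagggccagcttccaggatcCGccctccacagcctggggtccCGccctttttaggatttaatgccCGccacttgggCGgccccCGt
Tjp3: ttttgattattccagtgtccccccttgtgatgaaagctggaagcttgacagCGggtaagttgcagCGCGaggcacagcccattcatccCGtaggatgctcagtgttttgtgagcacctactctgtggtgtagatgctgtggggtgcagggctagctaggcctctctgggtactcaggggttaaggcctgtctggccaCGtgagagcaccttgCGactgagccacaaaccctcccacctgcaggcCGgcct
These 3 promoters held 12, 9 and 7 CpG in 250 bases, with observed-to-expected ratios of 0.505, 0.437 and 0.343. In all 300 bases they held 13, 12 and 9 CpG, below the median of 14 for all promoters of protein-coding genes. Among the 114 covered promoters, whose median was 11.5, they ranked highest by mean percentile.

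The extremes of CpG content among the 114 covered promoters were Tmem179, a transmembrane protein gene, with 36 CpG in 300 bases, and the odorant receptor gene Olfr1366 with 0. They lie at chr12:112511161-112511410 and chr13:21538028-21538277, both on the minus strand.
Tmem179: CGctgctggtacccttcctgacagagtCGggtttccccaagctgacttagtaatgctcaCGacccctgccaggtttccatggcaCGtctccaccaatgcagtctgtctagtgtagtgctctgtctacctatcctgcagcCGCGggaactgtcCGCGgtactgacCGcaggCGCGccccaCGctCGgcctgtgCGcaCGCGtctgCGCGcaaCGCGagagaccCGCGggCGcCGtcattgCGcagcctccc
Olfr1366: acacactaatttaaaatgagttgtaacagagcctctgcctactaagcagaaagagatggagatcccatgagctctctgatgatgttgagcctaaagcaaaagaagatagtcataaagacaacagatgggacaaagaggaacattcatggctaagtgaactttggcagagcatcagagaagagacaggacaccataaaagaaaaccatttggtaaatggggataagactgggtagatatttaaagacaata
Mean percentile was 63.3 at Tmem179 and 34.9 at Olfr1366. Both regions covered the start site, over widths of 2521 and 2081 bp, so a promoter without any CpG carried a called domain of much the same width as one rich in them.

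For Cebpa, the sequence at chr7:35119043-35119292 (plus strand) shows what lay between its marked flanks, and for Pparg the upstream RefSeq promoter at chr6:115360894-115361143 (plus strand) shows what lay almost wholly in the gap of replicate 2, whose next peak began at 115361117.
Cebpa: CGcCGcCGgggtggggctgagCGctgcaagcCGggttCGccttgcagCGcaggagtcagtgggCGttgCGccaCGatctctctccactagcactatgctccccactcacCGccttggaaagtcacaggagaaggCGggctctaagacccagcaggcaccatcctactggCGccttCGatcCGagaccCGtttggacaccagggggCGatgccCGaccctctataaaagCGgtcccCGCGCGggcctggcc
Pparg: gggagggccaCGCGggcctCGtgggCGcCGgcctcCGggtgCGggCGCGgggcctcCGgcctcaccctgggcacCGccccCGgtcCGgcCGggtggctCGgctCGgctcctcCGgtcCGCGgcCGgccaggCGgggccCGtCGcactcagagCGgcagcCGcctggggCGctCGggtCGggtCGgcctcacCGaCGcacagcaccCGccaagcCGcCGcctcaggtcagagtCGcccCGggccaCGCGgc
The Cebpa promoter lay outside the peaks of both replicates, and the upstream Pparg promoter was not covered in full by replicate 2. Both promoters were rich in CpG, with 22 at Cebpa and 38 at Pparg in 250 bases and ratios of 0.801 and 0.896. The covered Pparg promoter farther downstream had fewer.

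Over all 852 promoters, the median was 16.5 CpG per 300 bases, with quartiles of 7 and 26.0. The median was 18 for 1779 promoters at regions with a peak in all 4 libraries and 14 for all 19174 promoters of protein-coding genes. Promoters with 5 CpG or fewer made up 19.1% at the E14.5-only regions, 11.6% at the regions marked in all 4 libraries and 30.2% of all promoters. The 852 promoters lay between the other sets in CpG content, whereas the 114 promoters covered in full by peaks of each E14.5 library had a median of 11.5, below that of all promoters.

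Motifs were searched as plain letters on both strands of the same 300 bases. The TATA box TATAAA was found in 8.92% of the 852 promoters and in 12.1% of all 19174. The CCAAT box, CCAAT, was found in 35.3% and 37.5%, and the GC box GGGCGG in 57.2% and 48.3%. The E-box CANNTG was found in 72.1% and 68.3%, and GAGAG in 64.2% and 62.6%. Promoters at regions marked in all 4 libraries had shares of 7.70%, 31.1%, 60.7%, 68.6% and 67.8% in the same order, so the lower TATA box and higher GC box shares were not particular to the E14.5-only regions. CCAAT and CANNTG can share letters, and the GC box contains a CpG, so its share moves with CpG content. A match is a description of the letters only.

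Signalling genes of several pathways lay next to the regions, as a lower share of their marked genes than the 27% over all 4336 marked genes. Of 42 marked Wnt pathway genes, 8 had an E14.5-only region (19%): the ligands Wnt4 and Wnt9a, the receptors Fzd3, Fzd4 and Fzd8, the agonist Rspo1, the antagonist Sfrp4 and the intracellular inhibitor Nkd1. Wnt4 had percentiles of 89.9 and 81.5 upstream of its start, and a peak of E18.5 replicate 1 followed 1278 bp away, while the nearest peak of replicate 2 was 212120 bp away. Nkd1, a marker of the upper dermis, had 87.6 and 70.2, with peaks of the E18.5 replicates 1359 and 4911 bp away. At Fzd4 no E18.5 peak lay nearer than 46.1 kb to the region inside the gene, which held percentiles of 77.9 and 66.1.

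Of 26 marked genes of the TGF-beta and BMP pathway, 5 had an E14.5-only region (19.2%), namely Lefty1, Inhbb, Gdf5, Nog and Acvr1b. Lefty1, an inhibitor of NODAL, was covered over its start at percentiles 90 and 75.8. Nog, which encodes the BMP antagonist noggin, had 24.3 and 71.3, so the replicates ranked it far apart. Inhbb, an activin subunit, had a mean percentile of 59.4 at its stronger region, and Gdf5, a joint morphogen, had 54.1.

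Of 43 marked genes of FGF and receptor tyrosine kinase signalling, 9 had an E14.5-only region (20.9%). Kitl, the ligand of KIT on melanocytes and mast cells, led them with percentiles of 87.7 and 78.9 at chr10:100016512-100018547, and no E18.5 peak lay within 2301 kb. In order of mean percentile, Fgf21, Fgf18, Fgf11, Gdnf, Fgf14, Fgf12, Nrg4 and Egf followed. Of the 9 genes, 6 also lay near a region with an E18.5 peak. In the Hedgehog and Notch pathways, the downstream targets Heyl, Hey1 and Gli1 had an E14.5-only region. Heyl had percentiles of 72.6 and 61.2 over its start, and Gli1 had 40.7 and 13.1.

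Shares for transcription factor families are given beside the 27% of all marked genes that lay near an E14.5-only region, and were not tested. Of 162 marked homeobox genes, 8 had one (4.94%), and of 58 marked genes of the forkhead, Sox, T-box, Gata and Runx families, 3 had one (5.17%). Of 44 marked basic helix-loop-helix genes there were 4 (9.09%). The median mean percentile at E14.5 was 98.9 for the marked homeobox genes, 97.3 for the forkhead to Runx families and 95.5 for the helix-loop-helix genes, beside 85.4 for all marked genes. The families of higher rank thus had the lower shares, and both values come from the lists that chose the regions.

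The homeobox genes were Hoxd3, Hoxd4, Hoxd8, Hoxc4, Pou6f1, Pou5f1, Satb1 and Meox1. Hoxd3, Hoxd4 and Hoxd8 share the widest region of all, 9282 bp at chr2:74706051-74715332, where replicate 1 had 1 peak of that width and replicate 2 covered 4262 bp. Its percentiles were 86.6 and 62.7, and an E18.5 peak lay 6.31 kb away. Hoxc4 had percentiles of 83.9 and 64.8. Among the other families, Sox6, Sox13 and Tbx15 had mean percentiles of 56.3, 37.0 and 51.5, and Sox6 and Sox13 had E18.5 peaks within 2.13 and 1.06 kb. The helix-loop-helix genes were Atoh8, Tal2, Npas1 and the muscle determination gene Myf5, with mean percentiles of 66.6, 63.1, 39.1 and 19.9.

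Of 103 marked zinc finger genes, 26 had an E14.5-only region (25.2%, beside 27% of all marked genes). Zbtb7a led them at percentiles 89.8 and 75.2, followed by Bcl11b, Glis1 and Snai1, a repressor of epithelial genes with 86.9 and 64.5 upstream of its start. Of 24 marked nuclear receptors there were 6 (25%), namely Pparg, Nr4a2, Nr6a1, Rorb, Esrrb and Nr1h3. Beside Pparg, the highest of them was Nr4a2 at 68.0 and 64.9.

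Among chromatin regulators, 12 of 30 Polycomb and H3K27 demethylase genes were marked at E14.5. Of those, 5 had an E14.5-only region (41.7%, beside 27% of all 4336 marked genes). They were Phf19, Phc2, Pcgf3, Pcgf5 and Ezh1. Phf19, an accessory subunit of the complex that writes the mark, had percentiles of 69.2 and 63.9, but its region lay 2797 bp upstream of the start. At Pcgf5 they were 78.6 and 53.9, and at Phc2 84.1 and 36.8, with both regions inside the gene. Ezh1, a writer of the mark itself, had 41.0 and 25.4. None of these 5 regions covered a start site.

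Matrix genes included minor collagens and secreted proteases, and their shares are given beside 27% of all marked genes. Of 49 marked genes for collagens and matrix proteins, 10 had an E14.5-only region (20.4%), with Col23a1, Col6a6, Col9a3 and Emilin2 highest. Eln, which encodes elastin, had percentiles of 35.4 and 69.5. Of 22 marked matrix proteases and inhibitors there were 9 (40.9%), among them Mmp17 at 73.5 and 83.7, Mmp28 at 82.9 and 73.0 and Adamts20, a protease needed for melanoblast survival, at 79.2 and 67.5. Of 29 genes typical of dermal fibroblasts only 2 were marked at E14.5 and 1 of those, Nkd1, had an E14.5-only region (50%). Of 35 marked dermal papilla genes, Enpp2, Heyl, Trps1, Nog, Hey1 and Rspo1 had one (17.1%). Enpp2, which encodes autotaxin, led them at 70.7 and 67.7 over its start, and Trps1 had 3 such regions.

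Genes of cell contact and guidance were also among them, beside a share of 27% over all marked genes. Of 40 marked axon guidance genes, 13 had an E14.5-only region (32.5%). They included semaphorins and their receptor (Sema6c, Sema4a, Sema4c, Sema3d, Sema3f and Plxnd1), ephrins and Eph receptors (Efna1, Efna3, Epha5, Ephb1 and Ephb2), Robo2 and Ntn3. Of 39 marked cadherins and protocadherins there were 14 (35.9%), with Pcdhac1 at 76.6 and 72.6, Pcdh12 at 75.4 and 70.4, and the desmosomal cadherins Dsc3 at 69.7 and 74.7 and Dsc2 at 61.5 and 80.5. Some protocadherin genes lie side by side and share a region. The median mean percentile of marked genes was 74.6 for the cadherin list, the lowest of the 32 lists.

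Neuronal genes and ion channels were also present, mostly at shares below the 27% of all marked genes. Of 61 marked potassium channel genes, 7 had an E14.5-only region (11.5%), and of 53 marked sodium, calcium and chloride channel genes there were 15 (28.3%). Of 76 marked neurotransmitter receptor genes there were 15 (19.7%), and of 103 marked synapse and neuropeptide genes 18 (17.5%). Kcna4 had percentiles of 80.2 and 76.8, the leak channel Nalcn had 80.6 and 80.7, and the adrenergic receptor Adra1d had 84.4 and 81.6. Shank3, a scaffold of excitatory synapses, had 3 such regions, and 12 of the 18 synapse genes also lay near a region with an E18.5 peak.

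Shares for receptors, transporters and enzymes are likewise given beside 27% of all marked genes, and were not tested. Of 76 marked genes for other G protein-coupled receptors, 15 had an E14.5-only region (19.7%), with Gpr135, Sstr4, Ptger2 and Vipr1 highest. Sstr4, a somatostatin receptor, had percentiles of 87.6 and 78.7 over its start. Of 120 marked solute carrier genes there were 38 (31.7%), among them Slc35f4 at 83.0 and 83.9 and the GDP-fucose transporter gene Slc35c1 at 82.7 and 81.0. Of 33 marked genes for cytochrome P450, retinoid and steroid enzymes there were 11 (33.3%), led by Hsd17b1, Dhrs3 and Cbr3.

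Genes of other cell types in skin also lay next to the regions, where the share over all marked genes was again 27%. Of 54 marked epithelial and cornified envelope genes, 10 had an E14.5-only region. Tjp3 led at 88.2 and 82.5, followed by Prss8, a serine protease of the epidermal barrier, Lor, which encodes loricrin, and Evpl, which encodes envoplakin. Of 21 marked blood and immune cell genes there were 9 (42.9%), with Prtn3, Fcgr1, Lcp1 and Cd3e highest, and of 35 marked cytokine and chemokine genes 7 (20%), with Cxcl5 at 92.5 and 77.2. Of 24 marked endothelial genes, Ramp2 and Rasip1 had one (8.33%), of 19 marked muscle genes Tnni3, Mybpc3, Ryr1, Myl3 and Chrnd (26.3%), and of 10 marked genes of melanocytes and Schwann cells Ednrb alone (10.0%). Of 5 marked cell cycle genes, Cdkn2b, an inhibitor of CDK4 and CDK6, had one (20%). Of 14 marked genes on the ribosomal and proteasome list, 4 had one (28.6%), namely Rps6kl1, Psmb8, Rpl35a and Rpl11. How far other cell types in the cultures differed between the stages cannot be read from peak lists and was not tested.

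At the lower end were regions that had barely entered the lists. Ttc39d had the lowest mean percentile of all, 2.42, from 3.23 in replicate 1 and 1.62 in replicate 2. Lrfn1 followed with 6.49 and 4.56, and Hmgxb4 with 7.66 and 4.56. None of these 3 regions covered a start site. In replicate 1 their fold enrichment was between 2.82 and 2.86, against a median of 3.21 for the whole list.

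The E14.5-only regions ranked below the promoter regions that were marked in all 4 libraries. Their median percentile was 59.6 in replicate 1 and 48.4 in replicate 2, and the median fold enrichment was 3.32 and 3.50. The 2188 promoter regions with a peak in all 4 libraries and no peak of 10000 bp or more had median percentiles of 91.3 and 88.0. For 427 of the 1172 regions (36.4%) the percentile was above 50 in both lists, compared with 95.2% of the regions marked throughout. Only 2, those at Hsd17b1 and Pparg, were above 90 in both lists. The median of the mean of both percentiles, used as the rank, was 51.5. The percentile in the E14.5 lists depended on the threshold. Its median over both lists was 54, but 87 with a −log10 q-value of at least 5 in all lists. It was 83.4 with that threshold in the E14.5 lists alone, 77.3 with lists shortened to equal length and 41 without E14.5 replicate 1. Percentiles were kept from the full lists, and lists were shortened by q-value, so the higher values were partly built in. Across the 1172 regions the percentiles of the replicates had a Pearson correlation of 0.40, and across the regions marked throughout it was 0.81. Regions are not independent replicates, and these values describe the agreement of a single pair of lists.

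The rank was closely tied to the absence of an E18.5 peak. Promoter regions marked by each E14.5 replicate, without a peak of 10000 bp or more, numbered 4067, of which the 1172 made up 28.8%, while 707 had a peak in a single E18.5 library. Divided into 5 equal groups by mean percentile, the share without an E18.5 peak was 73.9% in the lowest group, 46.5% and 20.1% in the next, then 3.32%, and 0.246% in the highest. The highest group held 2 of the 1172 regions. Among regions farther than 3000 bp from a start site that were marked by each E14.5 replicate, 2714 of 5485 (49.5%) had no E18.5 peak.

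Significance in the lists followed the same order. The median −log10 q-value of the strongest peak was 3.71 in replicate 1 and 3.28 in replicate 2, against 9.21 and 7.96 for the regions marked in all 4 libraries. In 58 regions (4.95%) it was at least 5 in both replicates, and in 137 (11.7%) it was under 3 in both. The 58 regions were next to 66 genes, had a median width of 1932 bp, and in 29 cases covered a start site. Those with a known role in the skin or its fat included Pparg, both regions of Cebpa, Kitl, Wnt4, Tjp3 and Dhrs3, a selection made after the values were seen.

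How many regions met the rule depended on the libraries and on the threshold. Of the E14.5 replicates, leaving out the first gave 1926 regions and leaving out the second 2639. Of the E18.5 replicates, leaving out the first gave 1773 and leaving out the second 1276. When all lists were shortened to the length of the shortest, 319 regions met the rule, and 220 of the 1172 (18.8%) were found again. With a −log10 q-value of at least 5 asked of all 4 lists the number was 865, but 58 of those overlapped 1 of the 1172 regions, since the same threshold also takes peaks out of the E18.5 lists. The absence of an E18.5 peak means that the signal stayed below the threshold of that list. A shorter list at E18.5 and a change with stage cannot be told apart from these lists.

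The regions were narrow. The median width was 1798 bp, with quartiles of 1154 and 2577 bp and a range from 305 bp at Prtn3, a neutrophil protease gene, to 9282 bp at the Hoxd genes. The median width was 4828 bp for the promoter regions marked in all 4 libraries and 1674 bp for the E14.5-only regions away from start sites. The 1172 regions together spanned 2.42 Mb. When E14.5 replicate 1 or replicate 2 was left out, the median fell to 696 and 1003 bp, and the cause of this was not tested. It rose to 3839 bp when a −log10 q-value of at least 5 was asked of all lists.

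Next in width to the Hoxd region were those at Cog2 (8491 bp), a Golgi transport gene, Sel1l3 (7924 bp), Nipsnap1 (7506 bp) and Arhgap20 (7346 bp). Their width rested mainly on replicate 1. At Cog2, replicate 1 covered 8491 bp and replicate 2 1904 bp, and at Nipsnap1 the values were 7080 and 1730 bp. Only at Arhgap20, with 7313 and 5440 bp, did both replicates cover most of the region. Arhgap20 also had the highest rank of these 4, with percentiles of 77.0 and 83.8.

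The replicates covered the regions unequally. The median covered length was 1618 bp in replicate 1 and 933 bp in replicate 2, and replicate 1 covered more in 914 regions and less in 257. The length shared by both was 721 bp in the median region, or 45.4% of its width, and ranged from 9 to 5407 bp. In 1162 regions replicate 1 had a single peak, and in 1062 replicate 2 had a single peak. Covered length had a Pearson correlation of 0.54 between the replicates across these regions.

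A start site was covered by 436 of the 1172 regions (37.2%), compared with 77.0% of the promoter regions marked in all 4 libraries. The remaining regions lay beside it. In 446 (38.1%) the region was upstream of the nearest start site, at a median distance of 1224 bp, and in 290 (24.7%) it was downstream, at a median of 590 bp. By the peaks of single libraries the start site nearest to the region was covered in both replicates for 265 regions (22.6%). Regions over a start site were the widest, with a median of 2052 bp against 1818 bp upstream and 1469 bp downstream. They also had the highest median of the mean percentile, 58.6 against 45.4 and 51.7. The share that covered a start site was 22.0% without E14.5 replicate 1, 21.9% without replicate 2 and 72.8% with a −log10 q-value of at least 5 in all lists.

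Coverage was highest near the start and lowest 3000 bp inside the gene. The rule asked for a start site within 3000 bp, so a fall with distance was built into this profile. Peaks of replicate 1 covered the position 3000 bp upstream in 21.3% of the regions, the position 1000 bp upstream in 29.4%, the start site in 33.4% and the position 500 bp downstream in 35.3%. At 1000, 2000 and 3000 bp downstream the shares were 30%, 14.7% and 8.28%. In replicate 2 the shares at these positions were 9.81%, 18.3%, 26.4%, 30.8%, 21.8%, 8.19% and 4.52%, and at 2000 bp upstream 22.2% and 11.5% were covered in replicates 1 and 2. In regions marked in all 4 libraries, 79.8% and 75% were covered 500 bp downstream, and no other position was higher. In both replicates the maximum thus lay just inside the gene.

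By annotation, the middle of the region lay in an intron of a protein-coding gene in 533 cases (45.5%), outside genes in 430 (36.7%), in a non-coding part of an exon in 116 (9.90%) and in coding sequence in 93 (7.94%). Coding exons held the middle of the regions at Sstr4, Adra1d and Plxnd1.

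Most regions belonged to a single gene. Of the 1172, 1080 had 1 protein-coding gene within 3000 bp, 86 had 2 and 6 had 3, and in 74 the genes lay on opposite strands. The regions with 3 genes included that of Abhd15, Trp53i13 and Gm10392, with percentiles of 90.3 and 81.8 over the starts of the first pair. Another lay between Fgf21, a hormone of energy balance, Fut1 and Izumo1 at 81.7 and 78.1, and covered the start of Fut1 alone. The region of Cgas, the cytosolic DNA sensor, Mto1 and Gm17324 had 89.3 and 65.0 and covered no start site. A region is counted for each gene in its window, so the gene nearest to the mark need not be the one on a list.

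Conversely, 92 genes had more than 1 such region, and for 68 of them regions lay on both sides of a start site. Elmo1, a regulator of cell migration, had 5, the most of any gene, spread over its several start sites. Adrb1, the beta-1 adrenergic receptor, Sel1l3, Shank3, Trps1, Nckap5 and Ppfia3 had 3 each.

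Some genes had an E18.5 peak elsewhere. Of the 1169 genes, 282 also had a region with an E18.5 peak within 3000 bp of a start site, and 887 had none. An E18.5 peak lay within 1000 bp of 29 regions (2.47%), within 5000 bp of 225 (19.2%) and within 100000 bp of 771 (65.8%). The median distance to the nearest E18.5 peak was 49.0 kb. At Elmo1, the strongest region was 823 bp from a peak of E18.5 replicate 1 and 393291 bp from the nearest peak of replicate 2.

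The regions were spread over all 19 autosomes. Their number ranged from 29 on chromosome 19 to 110 on chromosome 11. As a share of the promoter regions marked in both E14.5 libraries, it ranged from 19% on chromosome 1 to 40.4% on chromosome 14. In 3 places, 4 regions followed each other with gaps of at most 100000 bp. The first of these, chr2:29763066-29888615, held Odf2, Slc27a4, Urm1 and Gm13547, and no E18.5 peak lay within it. The second, chr10:127262173-127356121, held Gli1, Inhbe, Kif5a, Dctn2 and Arhgap9, and the other, chr11:72361166-72494395, held Spns2, Ggt6, Smtnl2 and Tekt1. These had 2 and 3 regions with an E18.5 peak between them.

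CpG content of the sequence under the regions depended on the peak threshold. The median ratio of observed to expected CpG was 0.279, compared with 0.376 for the regions marked throughout and 0.214 for E14.5-only regions away from start sites. With a −log10 q-value of at least 5 in all lists the ratio was 0.368, and with this threshold on the E14.5 lists alone 0.404. The regions marked throughout were not recomputed at this threshold, so their 0.376 cannot be set against these values. The ratio of the E14.5-only regions stayed within the spread between libraries under 5 of 18 alternatives. Median GC content was 49.5% in the 1172 regions, 50.5% in those marked throughout and 46.4% in those away from start sites. A ratio of at least 0.6 together with a GC content above 50%, the classical limits of a CpG island, was met over the whole region in 42 of the 1172 (3.58%) and in 65 of the regions marked throughout (2.97%). In 637 (54.4%) the ratio was under 0.3. Within the 1172, regions over a start site had a median ratio of 0.369, those upstream 0.213 and those downstream 0.295. The widths of the sets differ, and a wider region takes in more flanking sequence.

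The highest ratio, 0.935, was found at Adrb1, in a region of 411 bp within the coding exon at percentiles 76.4 and 82.9. The regions at Plxnd1 (0.810), Sstr4 (0.783) and Ltc4s (0.734) were also CpG-rich. Among the named genes of low ratio were Gli1 at 0.0705, Pcgf3 at 0.0730 and Hmgxb4 at 0.0753. Their regions lay upstream of their start sites, outside genes.

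Median repeat content was that of the promoter regions marked in all 4 libraries, while the upper quartile was higher, 24.6% against 20.5%. Lower-case, repeat-masked sequence made up 14.9% of the median region, the same share as in the regions marked in all 4 libraries and below the 18.9% of the E14.5-only regions away from start sites. All 100 bp pieces matched 1 place in the genome in 860 regions (73.4%), compared with 55% of the wider regions marked in all 4 libraries. Fewer than 50% of the pieces did so in 24 of the 1172 regions and in 17 of the 2188 marked in all 4 libraries.

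The genes themselves were longer than average. Their median length was 27.8 kb, compared with 31.5 kb for genes at promoter regions marked in all 4 libraries and 17.6 kb for all 20780 protein-coding genes on autosomes. The median number of annotated start sites was 4, 4 and 3. A gene with more start sites has more places where a region can lie within 3000 bp, and the part of this in the gene count was not tested.

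At the limits of the rule, the members closest to 10000 bp were the Hoxd region, with a peak of 9282 bp and a mean percentile of 74.7, and that at Cog2, with a peak of 8491 bp and 51.1. Only 3 regions were left out for width alone. The narrowest 2 of them were a peak of 10369 bp at the keratin-associated protein gene Krtap4-13, with Gm11554 and Gm11569, and a peak of 11611 bp at En1, a homeobox gene of the ventral limb and dermis, with mean percentiles of 59.3 and 81.0. At the limit of distance, the members farthest from a start site were Olfr94 at 2995 bp and Zfp799 at 2991 bp, with mean percentiles of 41.3 and 41.5. The nearest regions left out lay 3001 bp from Cdc37l1 and 3002 bp from Fbxl16, with mean percentiles of 26.9 and 42.2. Krtap4-13 and Fbxl16 also had other regions that met the rule.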

How the data were processed

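H3K27me3 ChIP-seq of WT dermal fibroblasts was analysed from 4 peak lists, 2 of E14.5 and 2 of E18.5, grouped by the sample labels. The authors aligned reads with Bowtie2 2.3.5.1 to mm10 and called broad peaks with MACS2 2.2.7.1 at a q-value threshold of 0.01, separately for each library. SAMtools 1.9 and deepTools 3.5.1 are also named in the submitters' processing notes. In the deposited lists, fold enrichment is the ratio of pileup to local background, and significance is on the scales −log10 p-value and −log10 q-value. The control of the peak call is not named. The authors state that WT and Kdm6b-knockout samples of E18.5 were subsampled to the depth of other samples, and whether this covers these libraries is unclear.

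Start sites were every transcript start of protein-coding genes in GENCODE vM21 (GRCm38). Distances run from the region to the start site, with 0 for a covered start. Sequence came from RefSeq GRCm38.p6, and promoters were read from its table. Uniqueness was judged by mapping pieces of 100 bp with minimap2 2.31-r1302, where mapping quality 30 or higher counted as unique. Calculations used Python 3.11.15, numpy 2.4.6 and pandas 2.3.3 and were tested on simulated data. Some gene lists were filled by symbol prefix, so they can hold genes of another function. The members and lists were chosen with earlier results of these data known.

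Genes were named by a rule: those at the 15 regions of highest mean percentile, the 5 widest and the 3 lowest, up to 4 per gene list by rank, Sox18, Alpl, Cebpa, Pparg, Fgf10 and Retn, and the regions at the limits or with most genes. Further genes of the lists, of clusters, with several regions or with extreme CpG content were named after their values were seen. No test was run, since the same lists chose the regions. Alternatives were thresholds, equal list lengths, peak widths, merging distance, replicate overlap, windows, annotations, chromosomes and leaving out each library, and 1 alternative was added after seeing the data.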

Additional observations from a re-analysis of the deposited data

How the results depend on the processing

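Results were recomputed under 17 alternatives and 1 chosen after seeing the data, in which a −log10 q-value of at least 5 was asked of the E14.5 lists alone. Counts were compared within a factor of 1.5, and width and share by the spread between libraries (484 bp and 4.34 percentage points). The number of regions stayed within this bound under 13 of the 18, the number of genes under 15, the median width under 11 and the share over a start site under 7. The median percentile stayed within the spread under 11. With lists of equal number there were 319 regions and 351 genes. With the added threshold there were 58 regions, 66 genes and 50% over a start site. Leaving out 1 library gave 1276 to 2639 regions, 1259 to 2328 genes, median widths of 696 to 2066 bp and 21.9% to 40% over a start site. A rule on fewer lists is met more easily, and the cause of these differences was not tested.

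Median width was 2392 bp with a −log10 q-value of at least 3 in all lists, 3839 bp with at least 5, 2331 bp both with lists of equal number and with merging within 3000 bp, and 2690 bp with peaks of at least 1000 bp. The share over a start site was 47.1%, 72.8%, 53.9%, 48.9% and 51.9% in that order. It was 52.5% and 30.4% with windows of 1000 and 5000 bp, which by construction leave out or add regions off the start, and 28.9% with the 5′ end of the gene as the only start site. With at least 5 asked of all lists, 58 of the 1172 regions (4.95%) still met the rule, with at least 3, 601 (51.3%), and with lists of equal number, 220 (18.8%). Among the genes named by rule, members or not, 135 met the rule as reported, 40 with at least 5 in all lists, 34 with the added threshold and 81 with lists of equal number.

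No paired analysis was possible because the results come from no test. With 2 libraries per stage and no read counts, a change of the mark below the peak threshold could not be measured.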
